A study of Mus musculus with 7 samples.

Results

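Replication-dependent histone genes were measured in splenic CD45+CD11b+ cells, isolated by FACS on day 14 after allogeneic hematopoietic cell transplantation (allo-HCT). Members were all array rows whose annotated symbol named an H1f1 to H1f5, H2ac, H2bc, H3c or H4c gene, taking the brightest row per symbol. The rule found 53 rows for 53 symbols among 22139 transcript clusters, the probe groups that report 1 gene each on the Clariom S Mouse array. They comprised 4 H1, 13 H2A, 15 H2B, 10 H3 and 11 H4 genes, out of 63 mouse RefSeq genes whose symbols fit the same pattern. The family was taken up because its log2 fold changes in this comparison were already known, so counts and medians over the members are given as a description and no test of the family as a whole was made.

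All recipients were wildtype BALB/cAnN mice that had received 2 irradiations of 5 Gy and then bone marrow and T cells from C57BL6/N donors, the T cells being given to cause acute graft-versus-host disease. The 4 ROCK1/2-inhibitor treated mice (R1 to R4) received Y-27632 at 8 mg/kg in 100 µl intraperitoneally for 10 days from day 4 to day 13. The 3 vehicle-treated mice (V2 to V4) received PBS on the same schedule. The mice were between 6 and 14 weeks old. One array was run per mouse, and the values are the deposited log2 intensities. The gate holds neutrophils, monocytes and macrophages, and the labels do not separate donor cells from those of the host. One label field describes CXCL12-abundant reticular cells, whereas the others name Cd11b+ Cd45+ spleen cells. Itgam, which encodes CD11b, lay between 8.56 and 9.66 on all arrays, while Cxcl12 lay between 1.82 and 2.58, near the array medians of 2.14 to 2.19. Over the 22139 transcript clusters, R1 correlated more closely with V4 (Pearson r = 0.970) than with the other inhibitor arrays (0.953 to 0.964), all arrays having been normalized together.

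Replication-dependent histone genes encode most of the core histones H2A, H2B, H3 and H4, around which DNA is wrapped, and of linker histone H1, which binds the DNA between nucleosomes. The genes are clustered, lack introns and are transcribed in S phase. Their mRNAs end in a conserved stem-loop in place of a poly(A) tail. Stem-loop binding protein (SLBP) holds this end during processing, export and translation, and the mRNAs are degraded when DNA replication stops. In the myeloid lineage, precursors divide and make these mRNAs, whereas mature neutrophils do not divide. The labels name a labelling kit made for the 3' ends of mRNAs, and how it primes transcripts without a poly(A) tail was not tested.

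Promoters of single members are printed as examples of the sequence before the start sites and do not stand for their class. Shown are the 250 bases before the start, read 5′ to 3′ on the strand of the gene, for the member of each class with the lowest log2 fold change among those with a promoter in RefSeq (build GRCm38.p6), and for H1f2, the single member called higher. Capitals mark 4 motifs searched on both strands: the TATA box letters TATAAA, the CCAAT box (bound by NF-Y), the octamer ATTTGCAT (bound by OCT1) and GGTCC, the core of the H4 promoter site that HINFP binds. Where GGTCC on the opposite strand and CCAAT overlap, as in H3c11, the capitals run on.
H3c11 (chr13:21783398-21783647, minus strand): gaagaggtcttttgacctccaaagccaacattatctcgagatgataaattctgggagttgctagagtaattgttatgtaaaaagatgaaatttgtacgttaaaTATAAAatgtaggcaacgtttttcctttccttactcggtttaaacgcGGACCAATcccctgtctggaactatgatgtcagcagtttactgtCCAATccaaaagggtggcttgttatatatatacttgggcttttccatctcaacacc
H4c6 (chr13:23551669-23551918, minus strand): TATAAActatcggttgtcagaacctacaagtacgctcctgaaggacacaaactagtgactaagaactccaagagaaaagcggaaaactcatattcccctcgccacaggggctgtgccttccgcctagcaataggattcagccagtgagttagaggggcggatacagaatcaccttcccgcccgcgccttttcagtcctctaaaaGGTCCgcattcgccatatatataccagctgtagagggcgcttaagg
H2ac6 (chr13:23683960-23684209, minus strand): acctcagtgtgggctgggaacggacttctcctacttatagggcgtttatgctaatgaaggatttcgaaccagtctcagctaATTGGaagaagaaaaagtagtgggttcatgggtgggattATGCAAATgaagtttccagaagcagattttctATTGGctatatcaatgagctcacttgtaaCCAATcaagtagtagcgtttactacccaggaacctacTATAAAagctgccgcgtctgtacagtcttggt
H2bc3 (chr13:23746484-23746733, plus strand): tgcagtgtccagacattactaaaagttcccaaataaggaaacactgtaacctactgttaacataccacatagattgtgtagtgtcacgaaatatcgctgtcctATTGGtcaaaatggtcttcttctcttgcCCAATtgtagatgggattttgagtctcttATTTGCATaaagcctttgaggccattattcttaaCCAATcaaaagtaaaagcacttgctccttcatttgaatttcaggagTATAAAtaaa
H1f5 (chr13:21780626-21780875, minus strand): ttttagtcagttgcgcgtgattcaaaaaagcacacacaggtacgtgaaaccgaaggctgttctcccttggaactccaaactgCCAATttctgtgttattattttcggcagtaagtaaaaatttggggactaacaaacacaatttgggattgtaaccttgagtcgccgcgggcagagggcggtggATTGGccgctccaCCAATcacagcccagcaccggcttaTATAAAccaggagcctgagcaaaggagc
H1f2 (chr13:23738557-23738806, plus strand): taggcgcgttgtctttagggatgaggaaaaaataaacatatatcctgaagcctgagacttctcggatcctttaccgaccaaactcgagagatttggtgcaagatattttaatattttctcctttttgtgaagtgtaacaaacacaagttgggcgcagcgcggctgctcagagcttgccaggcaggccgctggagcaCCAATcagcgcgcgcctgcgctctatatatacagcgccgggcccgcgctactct
H1f5 held TATAAA 28 bases before its start and H2ac6 held it at 32 bases. In H3c11 and H4c6 it lay further off, at 147 and 250 bases, and H1f2 did not hold it. The similar letters tatatata, which were not searched or marked, occur near the start in H1f2, H3c11 and H4c6. H2ac6 and H2bc3 each carried an octamer, at 130 and 90 bases. H4c6 had GGTCC 46 bases before its start and no CCAAT.

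Across the family, 51 of 53 members had a lower mean in ROCK1/2-inhibitor treated mice than in vehicle-treated mice, against 49.1% of all transcript clusters. After adjustment over all transcript clusters, 19 members were called lower and 1 higher by limma at an adjusted p under 0.05, and 33 did not pass. Of all transcript clusters, 1.17% were called lower and 1.06% higher. Because the family was chosen on this comparison, nothing is read from the difference in these shares. The median log2 fold change of the members was -1.01 (quartiles -1.34 and -0.76, range -2.14 to 0.92), beside 0.0049 (quartiles -0.18 and 0.17) over all transcript clusters. Every inhibitor array was below every vehicle array in 36 members (7.03% of all transcript clusters), every inhibitor array was above in 1 member (6.22%), and the groups overlapped in 16. An unadjusted p under 0.05 was reached by 47 members in either direction, beside 8.5% of all transcript clusters in the lower and 6.76% in the higher direction. The members nearest the threshold were H2ac12, called at an adjusted p of 0.0486, and H2bc13, not called at 0.0515. In sorted cells measured in bulk, fewer cells of a type and less RNA per cell cannot be told apart. Some markers of neutrophils were also lower: of the 6 measured, 3 (Mpo, Prtn3 and Ltf) were called lower. S100a8 and S100a9 had log2 fold changes of 0.07 and 0.27 and were not called. The list mean was 8.51 to 9.08 in inhibitor arrays against 9.65 to 9.71 in vehicle arrays, each marker lying above the array medians. V4, the lowest vehicle array on the histone average, was the highest on this list mean only by a narrow margin (9.71, against 9.70 in V3). R1 was the highest inhibitor array on both, and R2 and R4 lay below R3 on both. The part of these markers in the histone values was not tested.

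The count of calls rested on few arrays. Without R1, 36 members were called lower, and without V4, 19. When R2, R3, R4, V2 or V3 was left out in turn, 0 members were called lower by limma, and of all transcript clusters no more than 13 were. The median log2 fold change stayed between -0.83 and -1.20 over these 7 fits.

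**Figure D1:**
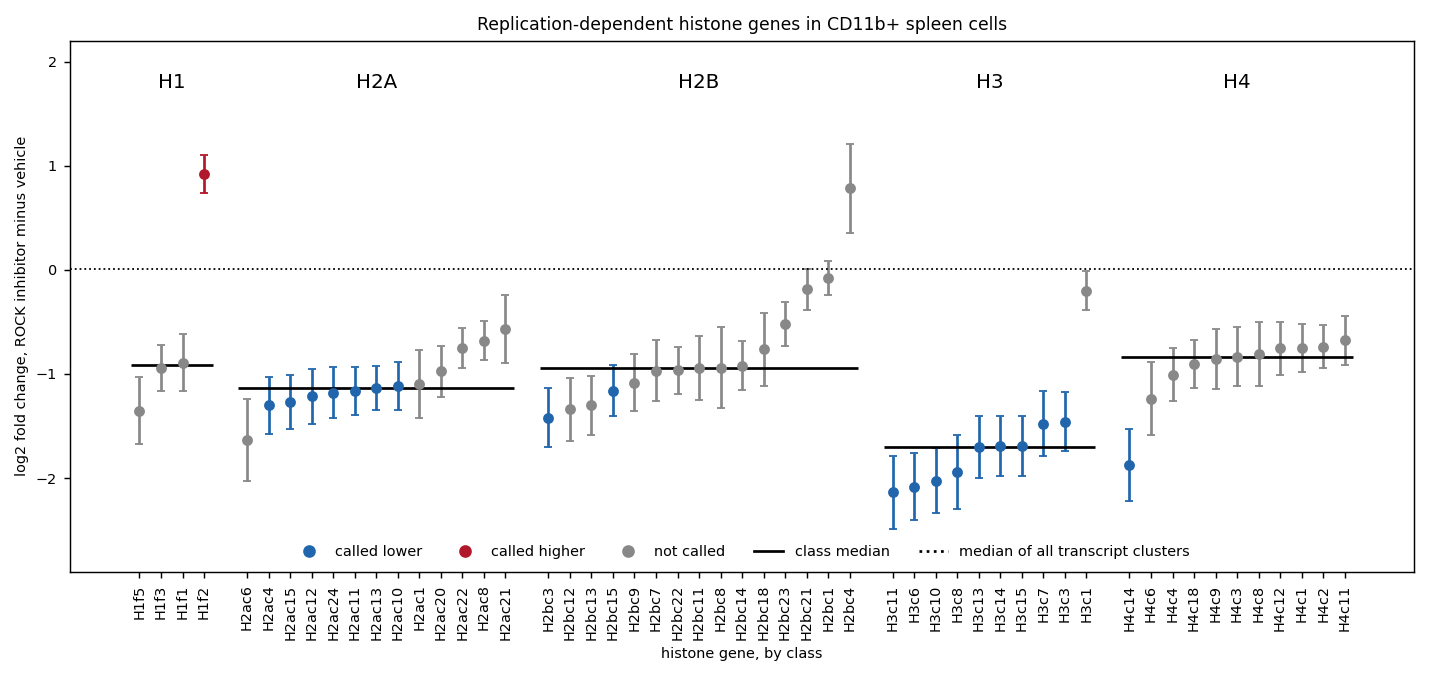
The log2 fold change (ROCK1/2-inhibitor minus vehicle) of each of the 53 members, by class; points are fitted values, bars are standard errors from limma, horizontal lines are class medians and the dotted line is the median of all transcript clusters. Of the 10 H3 genes 9 were called lower, with H3c11 the lowest at -2.14, and H1f2 is the single member called higher at 0.92.

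The H3 genes, which encode the core histone that carries many of the regulatory marks of chromatin, had the lowest class median at -1.70, and 9 of 10 were called lower. Levels of H3c11 were 9.65, 9.75 and 8.81 in V2, V3 and V4 and 8.16, 7.11, 6.97 and 6.82 in R1 to R4. The highest inhibitor array, R1, stayed below the lowest vehicle array, V4. Its mean was 9.40 ± 0.52 (SD, n = 3) in vehicle-treated mice and 7.26 ± 0.61 (SD, n = 4) in ROCK1/2-inhibitor treated mice, so that H3c11 fell by 2.14 on the log2 scale (SE 0.35, adjusted p = 0.0242), a level 4.40-fold lower. H3c6 (9.60, 9.64 and 8.74 against 8.02, 6.86, 7.19 and 6.91) fell by 2.08 (SE 0.32, adjusted p = 0.0212). H3c10 (9.59, 9.49 and 8.64 against 7.95, 7.03, 7.04 and 6.83) fell by 2.03 (SE 0.31, adjusted p = 0.0212). In these 3 genes R1 and V4 were the arrays closest to the other group. The levels of H3c8 were 8.80, 8.81 and 7.75 against 7.29, 6.10, 6.65 and 6.01, and it fell by 1.94 (SE 0.36, adjusted p = 0.0325). H3c3 (8.72, 8.59 and 7.80 against 7.53, 6.74, 6.81 and 6.56) fell by 1.46 (SE 0.29, adjusted p = 0.0396). The dimmer H3c7 (6.88, 7.29 and 6.25 against 6.05, 4.96, 5.01 and 5.30) fell by 1.48 (SE 0.31, adjusted p = 0.0480). In each of them V4 was the lowest vehicle array and R1 the highest inhibitor array. The call of H3c7 was lost with median centring (adjusted p = 0.0528).

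A further 3 H3 genes lie in the smaller cluster on chromosome 3. H3c13 (9.93, 9.84 and 9.11 against 8.57, 8.00, 7.74 and 7.40) fell by 1.70 (SE 0.30, adjusted p = 0.0284). H3c14 and H3c15 carried the same values on every array (9.74, 9.81 and 9.21 against 8.55, 8.07, 7.63 and 7.32) and fell by 1.69 (SE 0.29, adjusted p = 0.0279), so they count as 1 measurement. H3c1 was the exception in the class. It lay between 1.62 and 2.22 in vehicle arrays and 1.51 and 1.81 in inhibitor arrays, below the upper quartile of every array, and its log2 fold change of -0.20 did not pass (adjusted p = 0.714). Coding sequences of H3 genes are near-identical, and H3c11 and H3c6 differed by at most 0.25, H3c6 and H3c10 by at most 0.17, and H3c13 and H3c14 by at most 0.19 on any array. Whether probes are shared between such copies was not tested.

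H4 genes, whose histone pairs with H3, had the class median nearest to 0, at -0.84, and 1 of 11 was called lower. That gene was H4c14, the single H4 member on chromosome 3. Its levels were 8.20, 8.43 and 7.21 in the vehicle arrays and 6.67, 6.04, 6.17 and 5.40 in the inhibitor arrays, and it fell by 1.88 (SE 0.35, adjusted p = 0.0325). Its groups did not overlap. The 10 H4 genes on chromosome 13 had log2 fold changes from -1.24 (H4c6, adjusted p = 0.109) to -0.68 (H4c11, adjusted p = 0.190), and none was called. H4c6 measured 9.14, 9.19 and 8.06 against 8.31, 7.10, 7.57 and 7.24. H4c3, the middle gene of the class, measured 8.16, 8.43 and 7.52 against 7.83, 6.92, 7.16 and 6.88 (log2 fold change -0.84, adjusted p = 0.180). H4c11 measured 9.87, 9.77 and 9.30 against 9.47, 8.55, 8.94 and 8.93. In all 3 the level of R1 exceeded that of V4. The brightest H4 gene, H4c1, showed the same overlap, with 10.08, 10.25 and 9.75 against 9.87, 9.07, 9.16 and 9.02 (log2 fold change -0.75, adjusted p = 0.143). The inhibitor arrays lay below all vehicle arrays in 4 of the 11 H4 genes, H4c2, H4c4, H4c14 and H4c18. All 11 had an unadjusted p under 0.05. A difference between the H3 and H4 classes was not tested, since the classes were compared with their values known.

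H2A genes encode the partner of H2B in the nucleosome core. Their median was -1.14, 7 of 13 were called lower, and the arrays did not overlap in 12. H2ac13 had the lowest adjusted p among them, with 10.54, 10.85 and 10.19 in vehicle arrays against 9.73, 9.34, 9.40 and 9.08 in inhibitor arrays, and it fell by 1.14 (SE 0.21, adjusted p = 0.0319). H2ac4 (9.03, 9.22 and 8.59 against 8.26, 7.69, 7.56 and 7.07) fell by 1.30 (adjusted p = 0.0464). H2ac15 (9.65, 10.12 and 9.35 against 8.97, 8.07, 8.53 and 8.18) fell by 1.27 (adjusted p = 0.0427). In these 3 genes V3 was the highest array and V4 the lowest vehicle array. H2ac11 (10.23, 10.58 and 9.98 against 9.65, 8.97, 8.97 and 8.82) fell by 1.16 (adjusted p = 0.0421). H2ac24 had almost the same values, differing from H2ac11 by at most 0.047 on any array, and fell by 1.18 (adjusted p = 0.0449). H2ac10 (10.05, 10.30 and 9.57 against 9.32, 8.56, 8.81 and 8.74) fell by 1.11 (adjusted p = 0.0453), and H2ac12 (9.79, 10.11 and 9.55 against 9.20, 8.59, 8.57 and 8.05) by 1.22 (adjusted p = 0.0486). The calls of H2ac4, H2ac10, H2ac12 and H2ac24 were lost when each array was centred on its median, and those of H2ac10 (adjusted p = 0.0528) and H2ac12 (adjusted p = 0.0526) also after a repeated quantile normalization. Without V4 the call of H2ac12 was lost (adjusted p = 0.0595).

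The H2A gene with the lowest log2 fold change did not pass. H2ac6 measured 6.81, 7.33 and 5.56 in vehicle arrays and 5.54, 4.71, 4.91 and 4.57 in inhibitor arrays, a log2 fold change of -1.63 (SE 0.39, adjusted p = 0.0666). V4 lay more than 1 log2 unit below the other vehicle arrays and almost level with R1. Without V4 its adjusted p was 0.0167, and without R1 it was 0.0354. H2ac22, the brightest H2A member, measured 10.52, 10.75 and 10.23 against 10.13, 9.67, 9.67 and 9.56 (log2 fold change -0.75, adjusted p = 0.0817). H2ac21 had the smallest change of the class and overlapped, with 4.80, 5.77 and 4.25 against 4.75, 4.19, 4.09 and 4.48 (log2 fold change -0.57, adjusted p = 0.492). H2ac1, a variant known from the testis, measured 3.81, 5.11 and 4.23 against 3.81, 3.45, 3.06 and 2.82 (log2 fold change -1.10, adjusted p = 0.130).

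H2B genes ranged from -1.42 to 0.78 with a median of -0.94, and 2 of 15 were called lower. H2bc3 (8.16, 8.66 and 7.89 in vehicle arrays, 7.48, 6.55, 6.88 and 6.36 in inhibitor arrays) fell by 1.42 (SE 0.28, adjusted p = 0.0421). H2bc15 (8.78, 9.40 and 8.73 against 8.26, 7.43, 7.97 and 7.58) fell by 1.16 (SE 0.25, adjusted p = 0.0480). Neither gene overlapped, and R1 was the highest inhibitor array in both. The call of H2bc15 was lost with median centring (adjusted p = 0.0559) and without V4 (adjusted p = 0.0598). The arrays did not overlap in 6 further H2B genes, H2bc7, H2bc9, H2bc12, H2bc13, H2bc14 and H2bc22, with adjusted p between 0.0515 and 0.136. H2bc11, the middle gene, measured 8.17, 9.47 and 8.69 against 8.23, 7.64, 8.03 and 7.43 (log2 fold change -0.94, adjusted p = 0.168), with R1 above V2. H2bc1, the testis form of H2B, and H2bc21 were dim on every array and had log2 fold changes of -0.07 and -0.19.

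H2bc4 went the other way. It is known to be made also as a polyadenylated mRNA in cells that no longer divide. Its levels were 4.61, 5.89 and 6.55 in V2, V3 and V4 and 7.18, 6.27, 6.08 and 6.35 in R1 to R4. V2 was far below the others, and V4 lay within the inhibitor range. The log2 fold change of 0.78 (SE 0.43) did not pass (adjusted p = 0.458).

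Linker histones split within a class of 4. H1f2, likewise known to give polyadenylated mRNA outside S phase, measured 6.11, 5.97 and 6.03 in the vehicle arrays and 7.18, 6.72, 7.24 and 6.70 in the inhibitor arrays. Which other members have such forms was not examined, so the trait is not read as setting H1f2 and H2bc4 apart. All inhibitor arrays were above all vehicle arrays. The vehicle mean was 6.04 ± 0.07 (SD, n = 3) and the inhibitor mean 6.96 ± 0.29 (SD, n = 4), so that H1f2 rose by 0.92 on the log2 scale (SE 0.18, adjusted p = 0.0402). This call was lost with a trended and robust variance (adjusted p = 0.0742) and on leaving out any one array other than R1 (adjusted p 0.0645 to 0.129, against 0.0439 without R1). The other 3 H1 genes had lower means and no overlap, but none was called. H1f5 measured 7.47, 7.38 and 6.85 against 6.61, 5.90, 5.92 and 5.10 (log2 fold change -1.35, SE 0.32, adjusted p = 0.0632). H1f3 measured 6.89, 7.50 and 7.24 against 6.64, 6.03, 6.44 and 5.97 (log2 fold change -0.94, adjusted p = 0.0606). H1f1 measured 6.54, 6.87 and 6.64 against 6.52, 5.37, 5.86 and 5.42 (log2 fold change -0.89, adjusted p = 0.136), with R1 only just below V2.

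**Figure D2:**
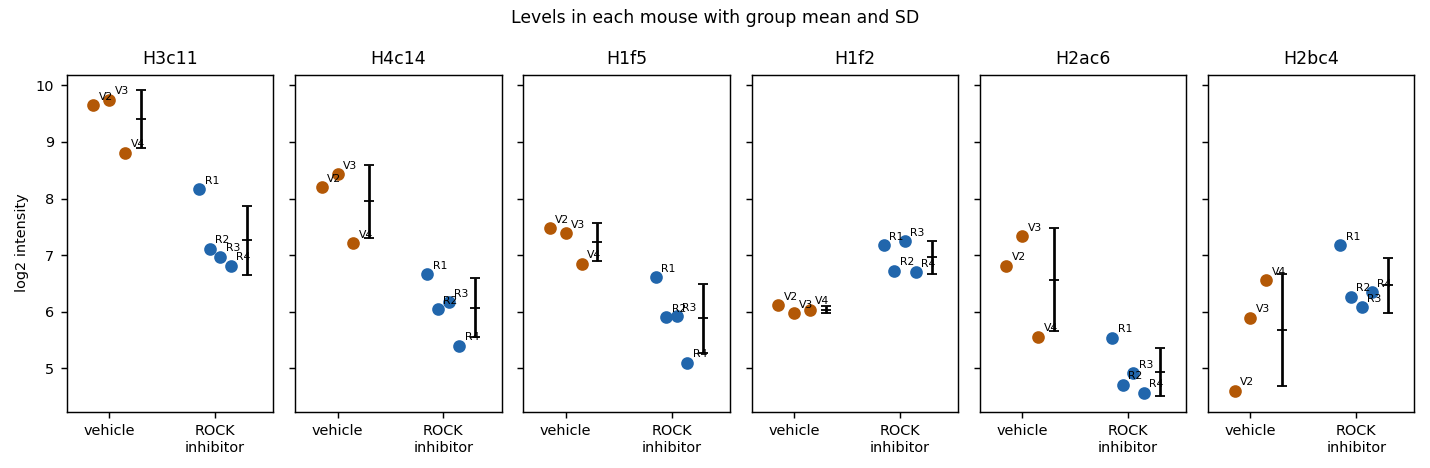
Log2 intensity in each mouse (points) with the group mean and SD (bars) for 6 members: H3c11, H4c14, H1f5, H1f2, H2ac6 and H2bc4. H3c11 shows the gap between R1 (8.16) and V4 (8.81), H1f2 the tight vehicle group (5.97 to 6.11), and H2bc4 the spread of the vehicle arrays (4.61 to 6.55).

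The mice of each group differed in the same order across most members. R1 was the highest inhibitor array in 49 of 53 members (92.5%), against 27.6% of all transcript clusters. R4 was the lowest in 31 members and R2 in 17. Among the vehicle arrays V3 was the highest in 45 members (84.9%, against 31.1% of all transcript clusters) and V4 the lowest in 43 (81.1%, against 31.9%). R2, R3 and R4 were each below every vehicle array in 47 members, while R1 was at or above V4 in 12. Averaged over the 53 members and set against the vehicle mean, R1 stood at -0.52, R2 at -1.24, R3 at -1.06 and R4 at -1.34, and V2 at -0.03, V3 at 0.36 and V4 at -0.33. On this average the groups did not overlap, R1 and V4 being closest.

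By class the spacing of the mice differed. For the H3 genes, the inhibitor arrays lay between -2.01 (R4) and -1.01 (R1), and the vehicle arrays between -0.51 (V4) and 0.30 (V3). For the H2A genes they lay between -1.38 and -0.59, against -0.38 to 0.42. For the H2B genes they lay between -1.08 and -0.33, against -0.27 to 0.40. In these 3 classes the averages did not overlap. The H4 average of R1 (-0.41) was above that of V4 (-0.46), and 7 of the 11 H4 genes overlapped singly. The H1 average of R1 (-0.06) was also above that of V4 (-0.10). No single H1 gene overlapped, since this average combines 3 genes lower in every inhibitor array with H1f2, which was higher.

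**Figure D3:**
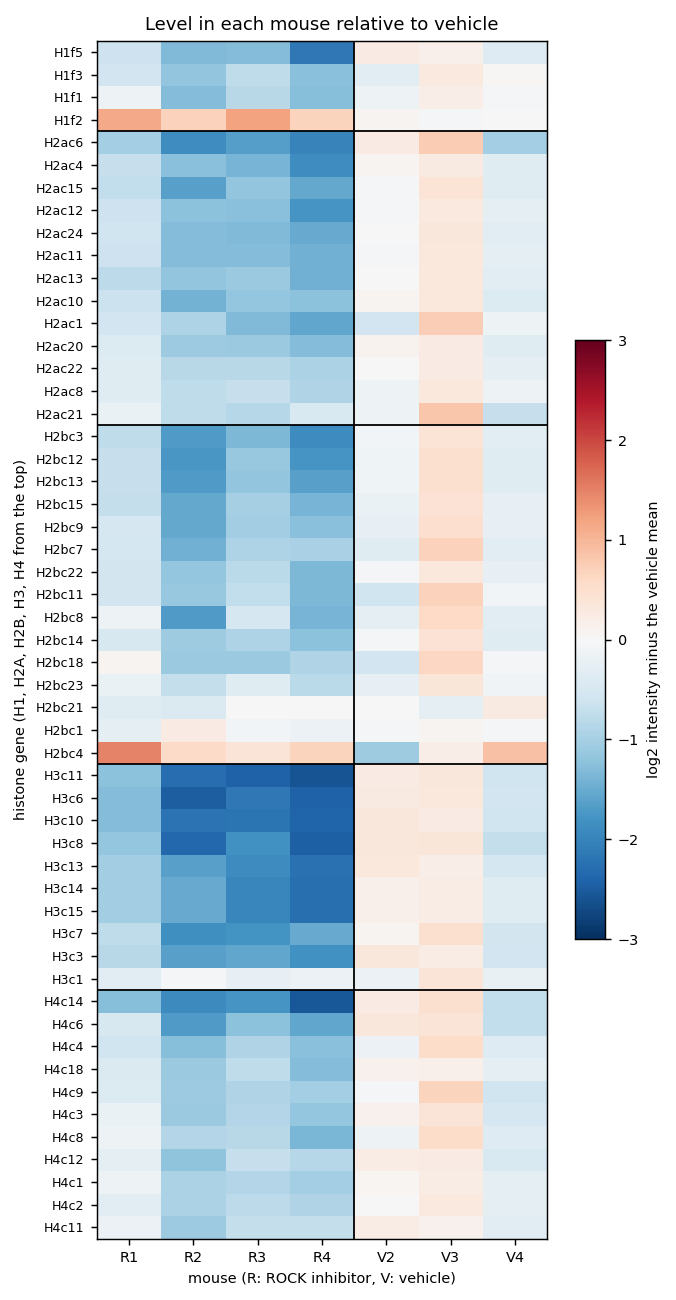
Log2 intensity of each of the 53 members (rows, by class and then by log2 fold change) in each mouse (columns), minus the mean of the vehicle arrays; blue is below and red above that mean. R1 is the palest inhibitor column, being the highest inhibitor array in 49 of 53 members, and the rows of H1f2 and H2bc4 are red in the inhibitor columns.

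Position in the genome, which the rule did not use, was read from the array's transcript cluster names. The main cluster on chromosome 13 held 45 members with a median log2 fold change of -1.01, of which 15 were called lower and 1 higher. The cluster on chromosome 3 held 8 members with a median of -1.33, of which 4 were called lower. Within classes the order varied. The H3 median was -1.94 on chromosome 13 and -1.69 on chromosome 3, the H2A medians were -1.16 and -0.77, and the H2B medians were -0.97 and -0.48. For H4 the order was the other way, with a median of -0.82 on chromosome 13 and -1.88 for H4c14, its single gene on chromosome 3. With 8 members on chromosome 3, 2 of them carrying the same values, these medians are a description.

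Pairs were searched only among members with a promoter in RefSeq, so H2bc4 and H2bc21, which have none there, could not be paired. Among the searched members, 7 H2A genes lie head to head with an H2B gene on chromosome 13. The starts are 164 to 281 bases apart, so that 1 stretch of DNA serves as promoter for both. In 6 of these 7 pairs both log2 fold changes lay between -1.34 and -0.68 and differed by at most 0.26. The quartiles were -1.22 and -0.98 over all H2A members and -1.12 and -0.64 over all H2B members. Whether paired genes are more alike than unpaired ones was not tested. H2ac15 and H2bc15, with 164 bases between them, were the single pair with both genes called (-1.27 and -1.16). H2ac12 and H2bc12 had -1.22 and -1.34, H2ac13 and H2bc13 had -1.14 and -1.30, and H2ac11 and H2bc11 had -1.16 and -0.94, with the H2A gene called in each pair. H2ac22 and H2bc22 had -0.75 and -0.97, and H2ac8 and H2bc8 had -0.68 and -0.94, with neither called. The testis pair H2ac1 and H2bc1, the latter dim on every array, had -1.10 and -0.07. Outside the search, H2ac6 and its neighbour H2bc4 had -1.63 and 0.78 and so were not alike.

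The promoter motifs were counted by class. Of the 53 members, 48 had a promoter in RefSeq, the 5 without being H2bc4, H2bc21, H3c1, H3c7 and H4c14. CCAAT was present in 39 of the 48 promoters (81.3%, against 33.8% of all 32851 promoters), in all of the 4 H1, 13 H2A and 13 H2B promoters, in 6 of 8 H3 promoters and in 3 of 10 H4 promoters. TATAAA was present in 24 of 48 (all promoters, 12.4%). The octamer was present in 12 of 48 (all promoters, 1.60%), 6 of them H2A and 6 H2B genes. In the head-to-head pairs the windows of the H2A and H2B gene overlap, so the same site can count for both, for CCAAT as well. GGTCC was present in 19 (39.6%, against 39.8%), 9 of them among the 10 H4 promoters. The median log2 fold change was -1.10 over promoters with CCAAT and -0.86 over those without, -0.97 and -1.13 for TATAAA, -1.04 and -1.05 for the octamer, and -0.94 and -1.16 for GGTCC. These medians mix classes with different motifs and were not tested. A match says only that the letters occur in the 250 bases before the start.

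**Figure D4:**
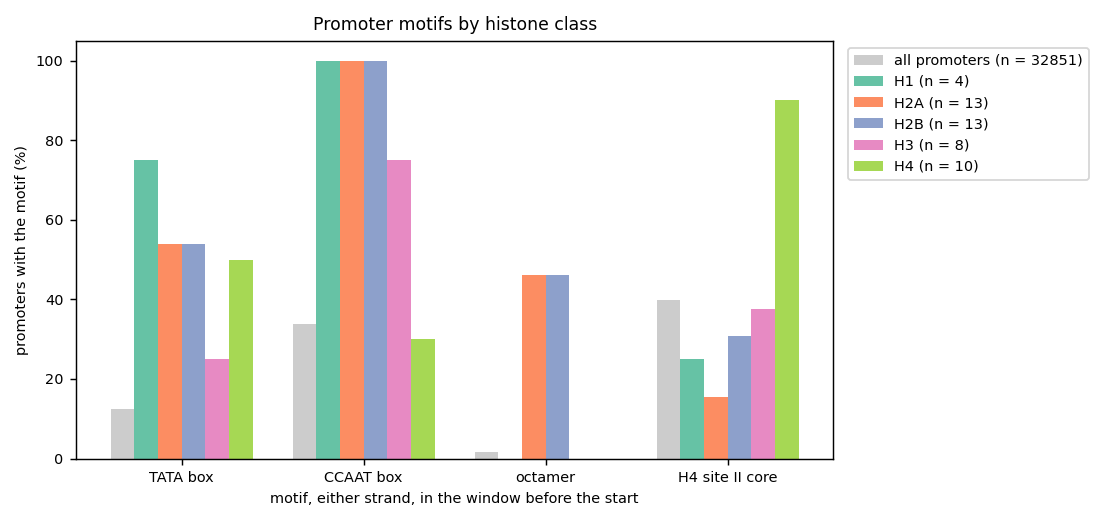
Share of promoters (percent, 250 bases before the start, either strand) that hold each of 4 motifs, for all 32851 RefSeq promoters (grey) and for the members of each class (colours). The octamer occurs in H2A and H2B members and in no H1, H3 or H4 member, and GGTCC occurs in 9 of 10 H4 members.

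The genes that make, process and degrade histone mRNA are given in the same comparison, in which 2.23% of all transcript clusters were called in either direction. Of 15 measured genes of histone transcription 0 were called by limma, with a median log2 fold change of -0.01. An unadjusted p under 0.05 was reached by 6, with Cdk2, Ccne1, Nfyc and Npat lower and Casp8ap2 and Tbp higher. Npat, which directs histone transcription at the clusters in S phase, had 3.49, 2.62 and 2.71 in vehicle arrays and 2.61, 2.34, 2.34 and 1.80 in inhibitor arrays (log2 fold change -0.67, adjusted p = 0.249), and Casp8ap2, which acts at the same nuclear bodies, differed by 0.73 (adjusted p = 0.0617). Of 19 genes of 3' end processing, 1 was called higher and 0 lower, with a median of 0.13. The called gene was Snrpe, a ring protein of spliceosomal and U7 particles, which rose by 0.98 (adjusted p = 0.0371). Slbp measured 5.60, 6.17 and 6.43 against 5.81, 4.99, 5.25 and 5.17 (log2 fold change -0.76, adjusted p = 0.170), R1 lying above V2. Lsm10 and Lsm11, which belong to the U7 particle alone, had log2 fold changes of 0.10 and 0.19. Of 10 decay genes 1 was called higher and 0 lower, with a median of -0.03. This was Xrn1, the exonuclease that degrades mRNA from its 5' end, at 4.11, 3.61 and 4.72 against 4.99, 5.94, 5.93 and 6.14, a rise of 1.60 (SE 0.32, adjusted p = 0.0423).

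Histone chaperones and assembly factors, 20 genes with a median of -0.22, held 1 gene called lower and 1 called higher. Hat1, the acetyltransferase of newly made H4, measured 4.99, 5.46 and 6.19 against 7.42, 6.71, 7.36 and 7.45 and rose by 1.69 (SE 0.29, adjusted p = 0.0284). Mcm2, a subunit of the replicative helicase that also binds H3 and H4, measured 5.28, 4.58 and 4.82 against 4.13, 3.56, 3.61 and 2.96 and fell by 1.33 (SE 0.27, adjusted p = 0.0449). The groups of both genes did not overlap. Of 12 other histone genes outside the rule, mostly replacement variants made through the cell cycle, 1 was called, with a median of -0.23. H2ax, the variant phosphorylated at DNA breaks, whose mRNA can end in either a stem-loop or a poly(A) tail, measured 7.52, 8.10 and 7.61 against 6.98, 6.26, 6.35 and 6.47 and fell by 1.23 (SE 0.22, adjusted p = 0.0296). The replacement genes H3f3a, H3f3b and H2az1 had log2 fold changes of 0.18, -0.24 and -0.39, with adjusted p between 0.474 and 0.774.

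Other genes of S phase and of mitosis are given beside the histones. Of 42 genes of DNA replication and nucleotide supply, 31 had a log2 fold change below 0, with a median of -0.31. An unadjusted p under 0.05 in limma was reached by 14, all lower except Rpa3 and Pcna. Of all transcript clusters, 8.5% reached it in the lower and 6.76% in the higher direction. After adjustment, 2 were called lower. These were Mcm2 and Rrm2, the regulated subunit of ribonucleotide reductase, at 6.58, 6.54 and 6.81 against 6.07, 5.37, 5.78 and 5.19, which fell by 1.04 (SE 0.22, adjusted p = 0.0480). For Pcna, the sliding clamp of replication, the log2 fold change was 0.55 (adjusted p = 0.285). The S-phase average was 4.08, 4.13 and 4.33 in V2, V3 and V4 and 4.24, 3.67, 3.88 and 3.64 in R1 to R4. R2, R3 and R4 lay below every vehicle array, and R1, again the highest inhibitor array, lay above V2 and V3. V4, the lowest vehicle array for the histones, was the highest for the S-phase genes. Of 29 mitosis genes 0 were called by limma, with a median of 0.01 (quartiles -0.58 and 0.51, range -1.38 to 1.93). An unadjusted p under 0.05 was reached by 12, in both directions. Cdc20, Aurkb, Cdca8, Kif20a, Cdca3 and Top2a were lower, and Cenpe, Kif23, Nusap1, Cks2, Ndc80 and Nuf2 were higher. For Mki67, a marker of dividing cells, the log2 fold change was 0.41 (adjusted p = 0.723), and for Top2a, which untangles sister chromosomes, -0.73 (adjusted p = 0.317).

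Markers of cells that the gate could hold are given beside these values. In the neutrophil list, Mpo, the peroxidase of primary granules made in promyelocytes, measured 7.14, 7.43 and 7.81 against 6.37, 5.23, 6.19 and 5.57 and fell by 1.62 (SE 0.29, adjusted p = 0.0293). Prtn3, a protease of the same granules, fell by 1.59 (adjusted p = 0.0421), and Ltf, of secondary granules, by 0.85 (adjusted p = 0.0372). The remaining 3 were not called. For Elane, another primary granule protease, the log2 fold change was -1.73 (adjusted p = 0.0571), with no overlap. S100a8 and S100a9, abundant proteins of the neutrophil cytosol, had 0.07 (adjusted p = 0.883) and 0.27 (adjusted p = 0.442), every inhibitor array being above every vehicle array for S100a9. Of the monocyte and macrophage, erythroid, T cell, B cell, plasma cell and stromal genes 0 were called, beside 2.23% of all transcript clusters. The monocyte and macrophage average was 5.96 to 6.76 in vehicle arrays and 6.43 to 6.91 in inhibitor arrays. In that list Ccr2 measured 5.97, 7.28 and 7.89 against 8.31, 8.01, 7.88 and 7.89 (log2 fold change 0.98, adjusted p = 0.253), and the groups overlapped. Csf1r, Adgre1 and Ly6c2 had log2 fold changes of 0.28, -0.16 and -0.16. The erythroid average, over 3 of 6 genes, was 2.10 to 2.73 in vehicle arrays and 2.69 to 2.81 in inhibitor arrays. The T cell averages (1.98 to 2.27 and 1.99 to 2.21) and those of the stromal genes (1.94 to 2.23 and 2.16 to 2.27) lay near the array medians in both groups.

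**Figure D5:**
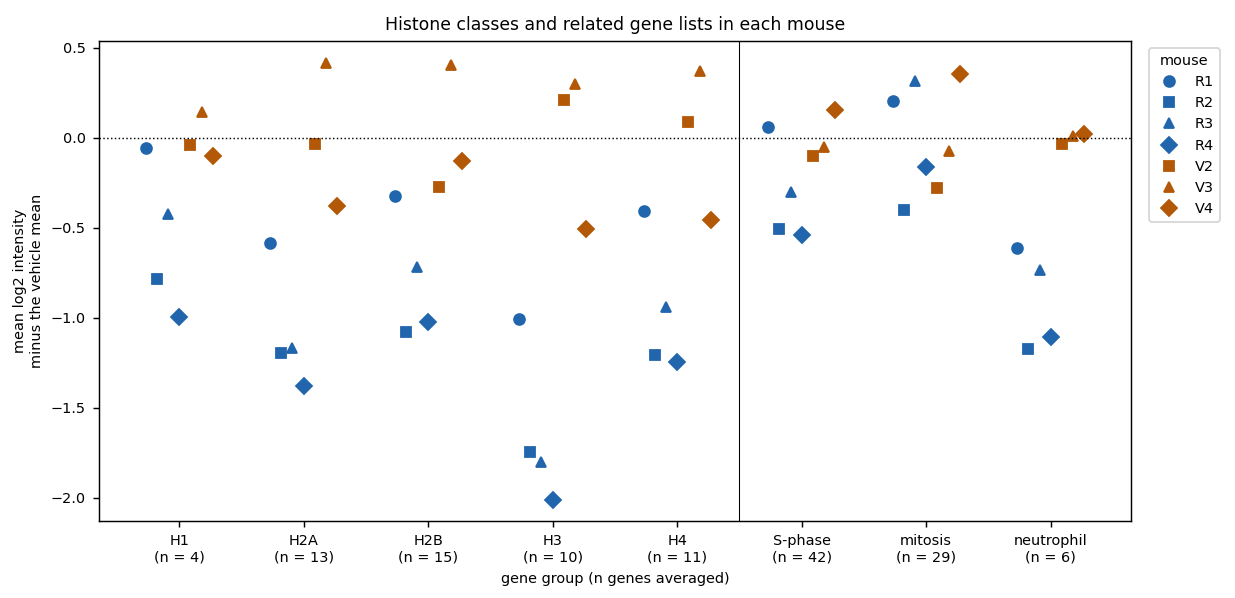
Mean log2 intensity of each histone class, of the S-phase and mitosis genes and of the neutrophil markers in each mouse, minus the mean of the vehicle arrays; each point is 1 mouse (blue, inhibitor; orange, vehicle). The H3 averages of R1 to R4 lie between -2.01 and -1.01. The averages of the groups overlap for H1, H4, S-phase and mitosis genes, H1 combining genes that moved in opposite directions. The neutrophil averages of the inhibitor arrays all lie below those of the vehicle arrays.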

How the data were processed

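RNA of CD45+CD11b+ spleen cells from 7 mice was hybridised to Clariom S Mouse arrays, 1 per mouse. Before deposit, the authors ran Robust Multi-Array Average (RMA) across the arrays, with the probes of each gene summarized to 1 value, and the deposited unit is the log2 intensity. Tools given in the submitters' processing notes are oligo and RMA (no versions), and the build was not given in the sources used here. Methods and labels differ on the RNA kit (Qiagen miRNeasy and PicoPure).

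Of 22203 deposited rows, the 22139 transcript clusters were tested, 19527 of them with 1 gene symbol. All 53 members were matched by Entrez ID to RefSeq (GRCm38.p6), which also gave the promoters. A linear model of the 4 inhibitor and 3 vehicle arrays without covariates was fitted in limma 3.58.1 (R 4.3.3, lmFit and eBayes, two-sided). P-values were adjusted after Benjamini-Hochberg over all transcript clusters (threshold 0.05), after the study's methods. Python 3.11.15 with pandas 2.3.3 and matplotlib 3.10.9 drew the plots. The 7 arrays limit the precision. The fit was tested on simulated arrays with independent genes and known shifts, which does not test how the calls depend on single arrays.

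The members, lists and alternatives were chosen with earlier results of these data known. Values in every array are given for members past the threshold and, per class, for the lowest, middle, highest and brightest member; other members, such as H1f1, H2ac1, H4c6 and the H2A and H2B pairs, and markers such as S100a9 were added after their values were seen. Of the lists, called genes and a fixed set are named. Alternatives were a trended and robust variance, array weights, quantile normalization again, median centring, cyclic loess, dropping the dimmest 25% of transcript clusters, all rows, rows with 1 symbol, the dimmest row per symbol, a replicate block, leaving out each array and, chosen after seeing the data, counting members with identical values once.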

Additional observations from a re-analysis of the deposited data

Results flagged for a closer look

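H4c1 was singled out among the values of the inhibitor group, because R1 (9.87) lay far from R2 to R4 (9.02 to 9.16). The gap between R1 and the nearest other inhibitor array was 0.836 of the range of the group, past the critical value of Dixon's test for 4 samples. Of 59 members and averages examined in this way, 1 passed, and chance passes about 1 in 20 groups. The vehicle group, with 3 arrays, was not examined.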

How the results depend on the processing

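The 31 members picked by the naming rule kept the direction of their difference under each alternative that gave them a value, leaving out an array included, and 0 reversed. The log2 fold changes cannot change with a trended and robust variance, or when all rows or rows with 1 symbol are used. Nor can they when dim transcript clusters are dropped or the dimmest row per symbol is taken, so the direction there was fixed in advance. H3c1 had no value once the dimmest transcript clusters were dropped, and the other members were followed through the counts and medians. The median log2 fold change of the 53 members lay between -1.20 and -0.83. The count of calls was less stable. A trended and robust variance called 26 members lower and 0 higher, and dropping the dimmest 25% of transcript clusters called 408 transcript clusters lower. The lowest count of members called lower under another normalization was 13, with median centring, which lost H2ac4, H2ac10, H2ac12, H2ac24, H2bc15 and H3c7, quantile normalization again lost H2ac10 and H2ac12, and counting identical values once left 18. Without any one array, 0 to 36 members were called lower and 0 to 1 higher, and of all transcript clusters 2 to 619 were called lower and 0 to 416 higher. The highest counts of lower calls came without R1, and without V4 the calls of H2ac12 (adjusted p = 0.0595) and H2bc15 (adjusted p = 0.0598) were lost. With the replicate number as a block over the arrays numbered alike in both groups, which leaves out R1, 40 members were called lower and 0 higher, and 569 transcript clusters were called lower and 395 higher. Whether the numbers pair the mice is not known. Over all transcript clusters the deviations of arrays with the same number correlated at 0.0962, -0.128 and -0.0316. Those of arrays with different numbers correlated at -0.134 to 0.185, so the check shows no pairing but cannot exclude it. The 7 arrays and the near-identical copies of the family, which may share probes, limit what single members show.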
